A study of Mus musculus with 36 samples.

Results

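Proximal forelimb tissue of mouse embryos that carry the Del(CBS1) allele was compared with the same tissue of wild-type (WT) embryos, by RNA-seq at the embryonic stage E12.5. The libraries were chosen by the tissue and genotype in their titles, which gave 3 libraries of Del(CBS1) and 3 of WT, 6 of the 36 libraries of the study. Del(CBS1) is a deletion made with CRISPR/Cas9 that removes CBS1, a binding site of the protein CTCF at the Hoxd cluster, while WT has no deletion. The other groups used here were proximal tissue of 4 larger alleles, whose names give 1 to 4 further sites as lost, from Del(CBS1-2) up to Del(CBS1-5), with 3 libraries each, and distal forelimb tissue of Del(CBS1) and WT, also with 3 libraries each. Distal libraries of the 4 larger alleles entered only as part of the distal fit, the fit of all 36 libraries and the scaling of counts. Every embryo was of the strain B6CBAF1, a hybrid of the B6 and CBA mouse strains. Each library was made from the forelimb pair of an individual embryo, with all cell types of the dissected tissue. Whether the embryos carried the deletion on 1 or on both chromosomes, which litters they came from and how many founder lines were used is not stated in the labels.

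CTCF binds DNA in a fixed orientation and, together with the cohesin ring, anchors chromatin loops and insulates neighbouring regulatory domains from each other. The Hoxd genes encode homeodomain transcription factors that pattern the limb from shoulder to digits. They lie in a row in 1 direction of transcription, flanked by a regulatory landscape on each side: enhancers on the Hoxd13 side act mainly in the future digits, and those on the Hoxd3 side act mainly in the arm. Genes from the Hoxd3 end to the middle of the row are therefore the ones best known from proximal tissue, whereas Hoxd13 is best known from the digits.

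Within the cluster, the lowest values relative to WT were found at 3 neighbouring genes, and their promoters are shown first because the results on the cluster turn on them. The sequences are those of RefSeq on GRCm38.p6, from 250 bases before to 50 bases after the start of the gene, 5′ to 3′ on the plus strand of chromosome 2. Capitals mark letters that match a searched motif on either strand: CCAAT, the TATA box TATAAA, or a shortened 12-letter form of the core that CTCF recognises. They are Hoxd8 at chr2:74704365-74704664, Hoxd4 at chr2:74721728-74722027 and Hoxd3 at chr2:74711743-74712042.
Hoxd8: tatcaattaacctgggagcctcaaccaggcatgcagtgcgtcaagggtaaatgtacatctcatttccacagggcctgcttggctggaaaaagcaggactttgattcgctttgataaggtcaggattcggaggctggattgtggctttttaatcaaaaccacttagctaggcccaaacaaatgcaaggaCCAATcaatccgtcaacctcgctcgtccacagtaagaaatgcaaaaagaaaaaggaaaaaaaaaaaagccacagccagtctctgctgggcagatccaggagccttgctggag
Hoxd4: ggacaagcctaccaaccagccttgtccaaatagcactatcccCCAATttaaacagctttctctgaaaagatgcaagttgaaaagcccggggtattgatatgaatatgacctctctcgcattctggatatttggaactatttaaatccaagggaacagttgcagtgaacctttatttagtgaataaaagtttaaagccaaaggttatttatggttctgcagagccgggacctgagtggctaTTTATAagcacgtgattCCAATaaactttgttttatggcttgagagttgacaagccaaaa
Hoxd3: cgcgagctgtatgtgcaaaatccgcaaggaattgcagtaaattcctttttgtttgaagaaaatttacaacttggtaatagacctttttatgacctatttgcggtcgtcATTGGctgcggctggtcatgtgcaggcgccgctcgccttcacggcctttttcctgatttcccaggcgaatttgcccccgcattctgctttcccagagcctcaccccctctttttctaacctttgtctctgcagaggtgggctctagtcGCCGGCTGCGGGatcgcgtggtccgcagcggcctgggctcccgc
The Hoxd8 window held 1 CCAAT match and no match to the other 2 motifs. The Hoxd4 window held 1 TATA box match, which begins at position 241 on the minus strand, and 2 CCAAT matches. The Hoxd3 window held 1 CCAAT match and 1 match to the CTCF core on the minus strand, which begins at position 257, just after the start of the gene at position 251. Among all 32851 RefSeq mouse promoter windows of that length, 37.4% held CCAAT, 13.6% the TATA box and 8.61% the CTCF core. GC content was 46.7% in the Hoxd8 window, 39.7% in that of Hoxd4 and 54% in that of Hoxd3, against a median of 52.7% over all windows. The labels do not place CBS1 on the genome, and these matches describe letters only.

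The 6 libraries held 11879507 to 16077070 counts. Replicate libraries were farther apart than counting error allows, with a chi-square of 5.2 to 7.78 per degree of freedom, and each was counted as 1 replicate. Muscle markers showed the tissue to be proximal: the 25 genes summed to 2487 to 3109 CPM (counts scaled to library size) in proximal Del(CBS1) and 2762 to 3166 CPM in proximal WT libraries, against 62 to 163 CPM in distal Del(CBS1) and 77.6 to 81.8 CPM in distal WT libraries. The sums of the endothelial, macrophage, ectodermal, nerve and erythroid markers overlapped between proximal Del(CBS1) and WT, and none of these genes was at 0 in every library of a group. Genes of the limb tip varied inside the groups. Msx1, a homeobox gene of the distal mesenchyme, stood at 26.3, 22.7 and 18.7 CPM in Del(CBS1), and at 7.46, 62.7 and 11.1 CPM in WT. Hoxa13 followed the same libraries, with 34.2, 33.2 and 21.3 CPM in Del(CBS1) and 13.6, 58.3 and 16.8 CPM in WT, so WT 2 held the highest level of both. Expression of Xist, the RNA of the inactive X chromosome, was seen in 1 of 3 Del(CBS1) and 2 of 3 WT embryos, so the sexes were not balanced. The part of the dissection boundary and of the sex of the embryos in the differences below was not tested. Genes near 0 in some libraries and clearly present in others of the same group (under 0.5 CPM against at least 5 CPM) numbered 6 in proximal Del(CBS1) and 38 in proximal WT.

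At the Hoxd3 end of the cluster, Hoxd8, Hoxd4 and Hoxd3 lay lower in Del(CBS1) than in WT in every library, by 0.54 to 1.04 on the log2 scale, although none of them passed over all genes tested. Hoxd8, a homeodomain gene of the middle of the row (chromosome 2, 74704615 to 74707933 on mm10), had 23.3, 26.0 and 24.9 CPM in Del(CBS1) libraries and 35.3, 38.8 and 34.2 CPM in WT libraries. The 2 groups did not overlap, and the gap between them was wider than the range inside either. The log2 fold change of Hoxd8 was -0.54 ± 0.11 (SE), with an edgeR Benjamini-Hochberg adjusted p = 0.0883. Hoxd4 (74721978 to 74729160) had 12.34, 13.79 and 12.53 CPM in Del(CBS1) and 23.53, 19.97 and 22.67 CPM in WT. Its groups were also apart, and its fold change of -0.77 ± 0.19 came with an edgeR Benjamini-Hochberg adjusted p = 0.26. Hoxd3 (74711927 to 74748271) was the lowest of the tested genes of the row, with 3.33, 4.00 and 5.56 CPM in Del(CBS1) and 8.86, 7.20 and 10.3 CPM in WT. No library of Del(CBS1) reached a WT value, with a fold change of -1.04 ± 0.26 and an edgeR Benjamini-Hochberg adjusted p = 0.267.

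Hoxd3 and Hoxd4 have gene models that overlap on 1 strand, so their reads cannot be fully told apart. Of the 50-base stretches in GENCODE transcripts of Hoxd3, 60.3% also occur in a transcript of another gene, and 46.8% of those of Hoxd4 do, mostly in the read-through model Gm28230, against 0% for Hoxd8. Summed, Hoxd3 and Hoxd4 gave 15.7, 17.8 and 18.1 CPM in Del(CBS1) and 32.4, 27.2 and 33.0 CPM in WT, a log2 ratio of the means of -0.84. Since each gene alone was below WT in every library, the sum had to be so too and is no further evidence. Counts of Gm28230 are not part of it. Hoxd3os1, an antisense RNA whose gene model overlaps those of Hoxd3 and Hoxd8, was 1.10 ± 0.35 CPM in Del(CBS1) and 1.25 ± 0.55 CPM in WT (SD, n = 3 each), and its groups overlapped.

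**Figure D1:**
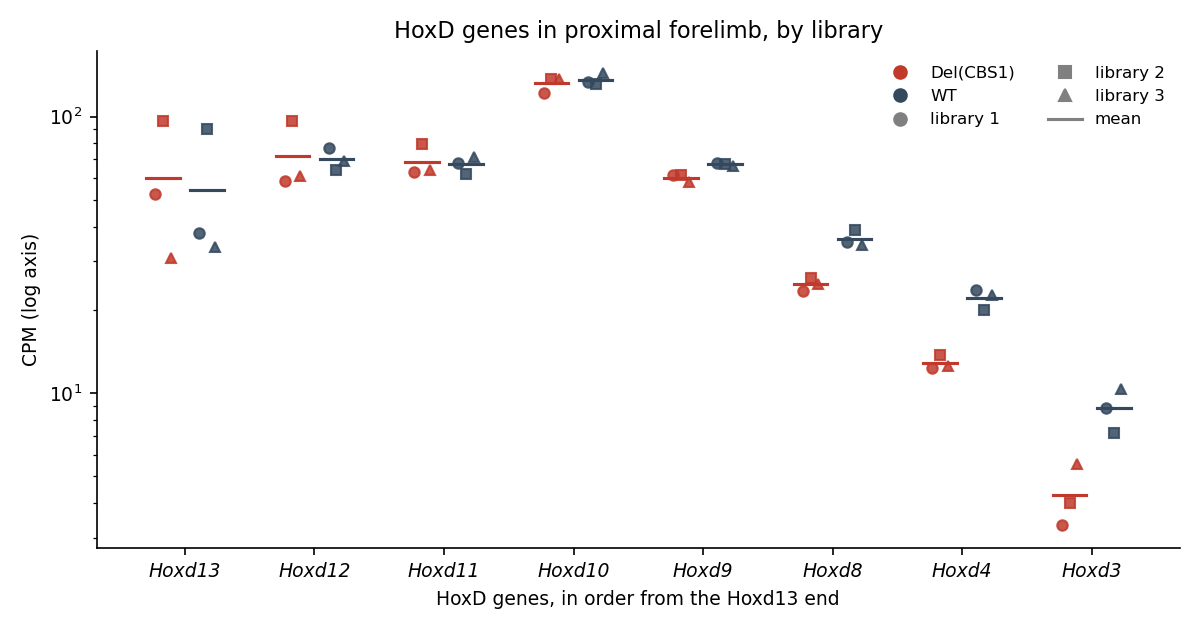
CPM on a log axis of the 8 tested HoxD genes in the proximal forelimb, with 1 point per library, horizontal bars at the mean of 3 and Del(CBS1) left of WT. Hoxd8, Hoxd4 and Hoxd3 are lower in all 3 Del(CBS1) libraries, with means of 24.7, 12.9 and 4.30 CPM against 36.1, 22.1 and 8.80 CPM in WT, while the groups overlap from Hoxd13 to Hoxd10.

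The remainder of the cluster showed smaller differences. Hoxd9, the next gene of the row, had 61.3, 61.5 and 57.9 CPM in Del(CBS1) and 67.9, 67.1 and 66.5 CPM in WT. Its groups were apart too, but its fold change was only -0.15 ± 0.09 (edgeR, Benjamini-Hochberg adjusted p = 0.798). Hoxd10, the highest HoxD gene of the tissue also per length, averaged 132 ± 8.7 CPM in Del(CBS1) and 136 ± 6.3 CPM in WT (SD, n = 3 each). Hoxd11, whose loss together with that of Hoxa11 is known to shorten the forearm, averaged 68.8 ± 9.1 CPM in Del(CBS1) and 67.2 ± 4.9 CPM in WT. Neither gene separated the groups, and the 95% intervals of the log2 fold changes ran from -0.21 to 0.12 for Hoxd10 and from -0.19 to 0.27 for Hoxd11. Hoxd12 had 58.6, 96.1 and 61.1 CPM in Del(CBS1) and 77.3, 64.1 and 69.1 CPM in WT. Hoxd13, the gene of the digits, had 52.5, 96.1 and 30.8 CPM in Del(CBS1) and 38.1, 90.3 and 33.9 CPM in WT. The highest Hoxd13 values were those of Del(CBS1) 2 and WT 2, and the interval of its fold change, -0.70 to 0.99, was the widest of the cluster. Hoxd1 was too low to test, with 5, 1 and 1 counts in Del(CBS1) and 4, 3 and 3 counts in WT.

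In all, 0 of the 8 tested HoxD genes passed at an edgeR Benjamini-Hochberg adjusted p under 0.05, where 7 of 15813 genes (0.0443%) did. At an unadjusted p under 0.05, 3 of 8 were lower, where 3.99% of all genes were, and 0 were higher, where 3.11% were. In 4 of 8 the highest Del(CBS1) library was under the lowest WT library, which held for 5.74% of all genes. The median log2 fold change was -0.10 over the 8 genes and 0.00 over all genes tested. DESeq2 called Hoxd8 and Hoxd4 (adjusted p = 0.00284 and 0.0356), where it called 25 of 15807 genes (0.158%). edgeR called Hoxd8, Hoxd4 and Hoxd3 when the filter on low counts was dropped, a setting that also called many more genes over all. These 3 genes were called in 0 of the 6 fits that left out 1 library, and not in the fit of the 6 libraries alone. On the scale of FPKM, which is per length, the order of the cluster in Del(CBS1) was Hoxd10 (48.9), Hoxd11 (33.9), Hoxd12 (19.7), Hoxd9 (19.0), Hoxd13 (16.6), Hoxd8 (7.67), Hoxd4 (4.36) and Hoxd3 (1.02 FPKM). In WT it was Hoxd10 (49.5), Hoxd11 (33.0), Hoxd9 (20.9), Hoxd12 (18.8), Hoxd13 (14.8), Hoxd8 (10.5), Hoxd4 (7.03) and Hoxd3 (2.495 FPKM). Hoxd9 and Hoxd12 changed places, but their spreads overlap in Del(CBS1), at 19.0 ± 0.58 and 19.7 ± 5.4 FPKM (SD, n = 3), so the change is not a difference.

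The genes around the cluster showed no call. Of 14 genes listed as flanks, all 14 were tested and 0 passed, with log2 fold changes of -0.15 to 0.29 and a median of 0.02. Evx2, the homeobox gene next to Hoxd13 that shares its enhancers, had 82, 94 and 8 counts in Del(CBS1) and 8, 148 and 7 counts in WT. Its high libraries were those with the most Hoxd13. Lnpk, an endoplasmic reticulum protein gene beyond Evx2, averaged 31.6 ± 3.0 CPM in Del(CBS1) and 34.2 ± 4.4 CPM in WT, and Mtx2, a mitochondrial protein gene beyond the Hoxd3 end, averaged 57.7 ± 2.4 CPM in Del(CBS1) and 57.4 ± 0.26 CPM in WT (SD, n = 3 each). Chn1, a Rac regulator, had 54.4, 61.8 and 60.9 CPM in Del(CBS1) against 49.7, 51.7 and 53.2 CPM in WT. Chn1 was the 1 flank of 14 with all Del(CBS1) libraries above WT, which held for 5.1% of all genes. It had a fold change of 0.20 ± 0.09, and Hnrnpa3, an RNA-binding protein gene, one of -0.15 ± 0.07 (edgeR, Benjamini-Hochberg adjusted p = 0.663 and 0.699). Within 1 Mb on either side, 2 of 11 genes (18.2%) had an unadjusted p under 0.05 in edgeR, and within 2 Mb 14.7% of 34 genes. Within 5 Mb it was 6 of 69 (8.7%), beside 7.1% of all genes. The narrow windows hold few genes.

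Across the allele series, Hoxd8 in Del(CBS1) lay within the range of the alleles that lack more sites, while the fitted levels of Hoxd4 and Hoxd3 were above the mean of those alleles without passing the test. These values share the WT libraries, so the contrast of Del(CBS1) with the mean of the other 4 alleles was used, which has none. Hoxd8 averaged 24.7 ± 1.4 CPM in Del(CBS1), and 19.4 to 26.7 CPM with a median of 22.9 over the 12 libraries of the other alleles. The difference of Del(CBS1) from their mean was 0.11 ± 0.09 on the log2 scale (95% interval -0.07 to 0.29). Hoxd4 averaged 12.9 ± 0.79 CPM, against 5.63 to 12.2 CPM with a median of 10.1, a difference of 0.41 ± 0.15 (0.09 to 0.73). Every Del(CBS1) library lay above every library of the other alleles, but the difference did not pass (edgeR, Benjamini-Hochberg adjusted p = 0.264). Hoxd3 averaged 4.30 ± 1.1 CPM, against 1.92 to 4.46 CPM with a median of 3.21, a difference of 0.46 ± 0.21 (0.02 to 0.91), with an edgeR Benjamini-Hochberg adjusted p = 0.369.

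Hoxd9 was the HoxD gene that passed in this contrast. It averaged 60.2 ± 2.0 CPM in Del(CBS1), and 36.2 to 63.2 CPM with a median of 47.0 in the other alleles, higher by 0.36 ± 0.07 (edgeR, Benjamini-Hochberg adjusted p = 0.0401), where 34 of 15813 genes (0.215%) passed, 19 higher (0.12%) and 15 lower (0.0949%). In Del(CBS1-3), 1 library reached above the Del(CBS1) libraries. Hoxd10 (0.25 ± 0.06) and Hoxd12 (0.54 ± 0.13) were higher as fitted without passing, with edgeR Benjamini-Hochberg adjusted p = 0.0884 and 0.0831. Against WT, the fold changes of Hoxd9 were -0.15 in Del(CBS1), -0.71 in Del(CBS1-2), -0.34 in Del(CBS1-3), -0.46 in Del(CBS1-4) and -0.55 in Del(CBS1-5). Those of Hoxd8 were -0.54, -0.78, -0.63, -0.59 and -0.63 in the same order of alleles.

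Outside the cluster 7 genes passed, 3 higher (0.019% of those tested) and 4 lower (0.0253%). The higher ones were the collagen gene Col6a5, the phosphatase gene Ppm1m and the germ cell gene Rbm44. The lower ones were Tmco1, Map2, the alpha-globin gene Hba-a1 and the pseudogene Bod1-ps. They lay on chromosomes 1 (Tmco1, Map2 and Rbm44), 9 (Col6a5 and Ppm1m), 11 (Hba-a1) and 16 (Bod1-ps), and 0 of 1273 genes tested on chromosome 2 passed. DESeq2 called all 7, whereas limma on log2(FPKM + 0.1) or log2(FPKM + 1) called 3 of them (Tmco1, Col6a5 and Bod1-ps) and the 6 libraries alone gave 2 (Tmco1 and Bod1-ps). The limma adjusted p-values of the other 4 were 0.155 and 0.438 for Rbm44, 0.115 and 0.144 for Hba-a1, 0.0711 and 0.0828 for Ppm1m, and 0.516 and 0.494 for Map2.

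**Figure D2:**
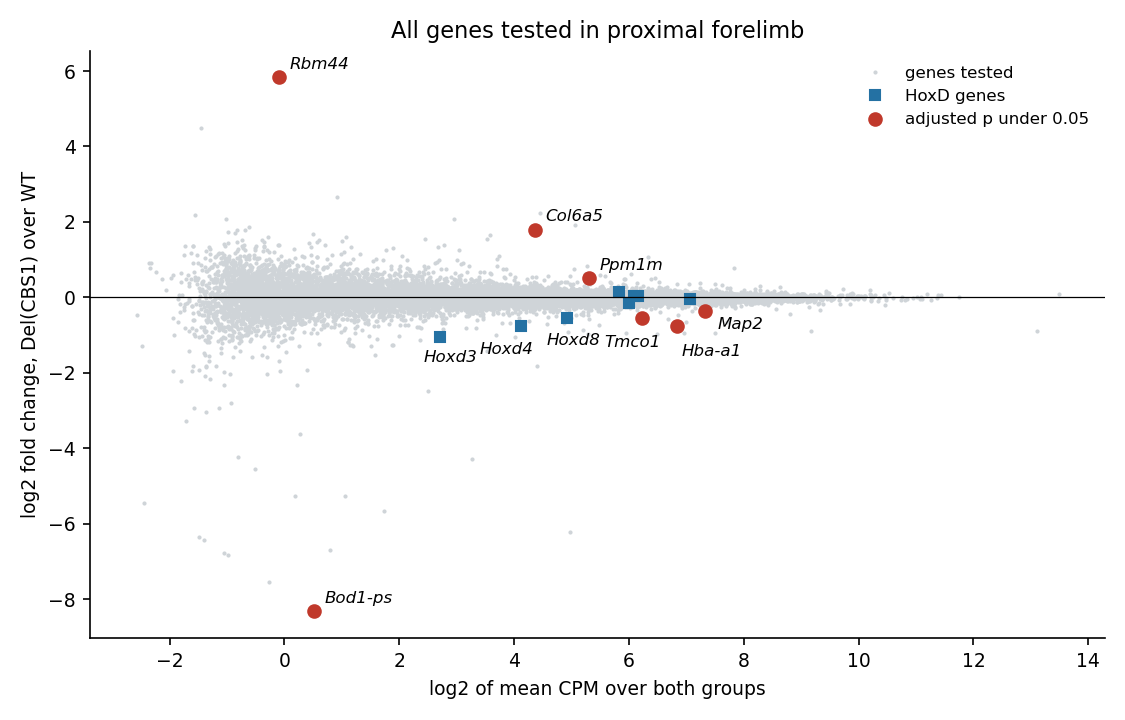
Log2 fold change of Del(CBS1) over WT against the log2 of mean CPM for the 15813 genes tested in proximal forelimb, with the 7 called genes as red circles and the HoxD genes as blue squares. The 3 higher genes lie above 0 and the 4 lower ones below, and the fitted folds of Rbm44 and Bod1-ps, each at or near 0 counts in 1 group, depend on the prior count and are no measure of size.

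Tmco1, an endoplasmic reticulum membrane protein described as a channel that releases calcium when the store is overfilled, fell with the smallest p of all genes. It had 60.9, 60.6 and 61.2 CPM in Del(CBS1) and 91.2, 91.2 and 85.3 CPM in WT. The Del(CBS1) libraries were almost equal, and far below those of WT. The fold change was -0.55 ± 0.05 (chromosome 1, 167308378 to 167330785; edgeR, Benjamini-Hochberg adjusted p = 8.95e-05). Map2, a microtubule-associated protein best known from neuronal dendrites, fell by 0.35 ± 0.06, with 137, 146 and 139 CPM in Del(CBS1) and 178, 187 and 174 CPM in WT (chromosome 1, 66175273 to 66442583; edgeR, Benjamini-Hochberg adjusted p = 0.0354). Its groups were apart in all libraries. Of the 6 fits that left out 1 of these libraries, Tmco1 passed in 6 and Map2 in 1, with adjusted p up to 0.00132 and 0.203.

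Col6a5, which encodes a chain of the microfibrillar collagen VI of connective tissue, rose by 1.79 ± 0.26. It had 34.3, 30.3 and 30.8 CPM in Del(CBS1) and 13.1, 5.45 and 9.26 CPM in WT (chromosome 9, 105856078 to 105960643; edgeR, Benjamini-Hochberg adjusted p = 0.0143). Each Del(CBS1) library held more than the highest WT library by over the whole WT range. The genes of the common collagen VI chains did not pass: Col6a1 averaged 200 ± 37 CPM in Del(CBS1) and 191 ± 25 CPM in WT, Col6a2 229 ± 47 and 214 ± 27 CPM, and Col6a3 293 ± 60 and 299 ± 39 CPM (SD, n = 3 each). Col6a6, the gene most alike in sequence, shares 3.42% of the 50-base stretches of Col6a5 and averaged 8.33 ± 0.67 CPM in Del(CBS1) and 11.1 ± 2.2 CPM in WT. Ppm1m, a protein phosphatase of the PP2C family, rose by 0.51 ± 0.09, with 49.4, 47.6 and 42.0 CPM in Del(CBS1) and 35.1, 30.7 and 32.1 CPM in WT (chromosome 9, 106194947 to 106199275; edgeR, Benjamini-Hochberg adjusted p = 0.0354). Col6a5 and Ppm1m lie within 1 Mb of each other. Col6a5 passed in 5 of the 6 fits without 1 library (adjusted p = 0.0516 without Del(CBS1) 2), and Ppm1m in 2.

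Rbm44, an RNA-binding protein of the bridges between male germ cells, was nearly absent in WT and present at a low level in Del(CBS1). It had 15, 14 and 43 counts in Del(CBS1) libraries and 1, 0 and 0 counts in WT libraries. All Del(CBS1) libraries were above WT, and the ratio of the summed counts, scaled to depth, was 76.6 (exact 95% interval 13.3 to 3070, counting error only; edgeR, Benjamini-Hochberg adjusted p = 0.0354). The 12 proximal libraries of the other alleles held 0 to 0.0769 CPM, so the gene was seen above trace level in Del(CBS1) among the 6 proximal groups. Distal tissue gave the same picture, with 12, 9 and 42 counts in Del(CBS1) and 0, 1 and 1 counts in WT. Library 3 was the highest in both tissues of Del(CBS1). Rbm44 passed in 1 of the 6 fits without 1 library, the one without Del(CBS1) 1.

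Bod1-ps, a pseudogene of the kinetochore gene Bod1, had 0 counts in each Del(CBS1) library and 27, 48 and 51 counts in WT libraries, at least 39.5-fold lower when 3 counts over the group are taken as the floor (edgeR, Benjamini-Hochberg adjusted p = 0.0354). Distal tissue had 0 counts in each Del(CBS1) library and 24, 40 and 43 counts in WT, at least 34.4-fold lower. Del(CBS1-2) was at 0 in the proximal libraries as well. Of the 50-base stretches of Bod1-ps, 11.3% also occur in Bod1, and Bod1 itself had 78.4, 85.9 and 86.0 CPM in Del(CBS1) and 76.3, 62.6 and 64.3 CPM in WT. The parent gene thus lay above WT where the pseudogene was at 0, and no test tied the 2 values. Bod1-ps passed in 2 of the 6 fits without 1 library.

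Hba-a1, an adult alpha-globin gene of red blood cells, fell by 0.77 ± 0.13, with 72.9, 77.3 and 105 CPM in Del(CBS1) and 111, 168 and 154 CPM in WT (chromosome 11, 32283511 to 32284465; edgeR, Benjamini-Hochberg adjusted p = 0.0354). Its value is uncertain, because 72.3% of its 50-base stretches also occur in the near-identical copy Hba-a2. Hba-a2 had 528, 433 and 508 counts in Del(CBS1) and 308, 2 and 0 counts in WT. WT 2 and WT 3 were thus at or near 0 for this copy, WT 1 was not, and Hba-a2 did not pass (2.24 ± 1.09; edgeR, Benjamini-Hochberg adjusted p = 0.71). The 2 copies together gave 107, 108 and 147 CPM in Del(CBS1) and 135, 168 and 154 CPM in WT, where the groups overlapped and the log2 ratio of means was -0.34. Beta-globin Hbb-bt had 14.6, 10.2 and 6.81 CPM in Del(CBS1) and 10.02, 27.05 and 28.73 CPM in WT and did not pass (edgeR, Benjamini-Hochberg adjusted p = 0.361). The 11 erythroid markers summed to 1572 to 2631 CPM in Del(CBS1) and 2011 to 2610 CPM in WT. In bulk tissue, fewer cells of a type and less RNA per cell cannot be told apart. Hba-a1 passed in 2 of the 6 fits without 1 library.

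**Figure D3:**
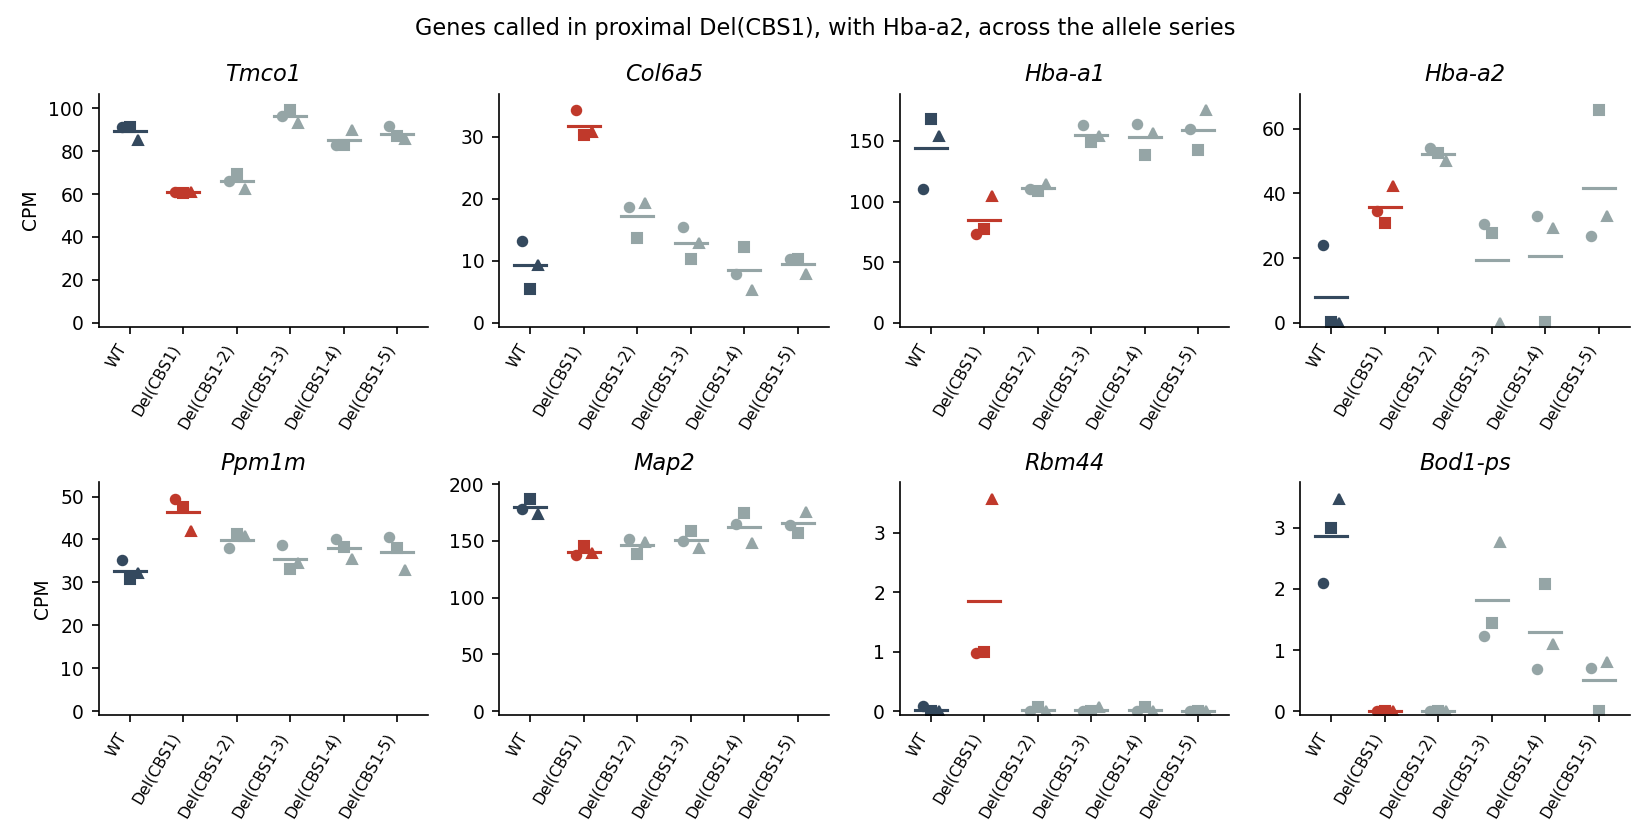
CPM of the 7 called genes and of Hba-a2 in each proximal library of WT and of the 5 alleles, ordered by the number of sites removed, with bars at the mean of 3. Rbm44 is above trace level in Del(CBS1), Bod1-ps is at 0 in Del(CBS1) and Del(CBS1-2), and Tmco1 is low in the same 2 alleles, at 60.9 and 66.0 CPM against 89.2 CPM in WT.

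In the contrast with the other 4 alleles, 4 of the genes called against WT passed as well. That contrast reuses the Del(CBS1) libraries by which these genes were called, so passing again is not independent of the choice. Tmco1 was lower by 0.45 ± 0.04 (edgeR, Benjamini-Hochberg adjusted p = 3.21e-05), Hba-a1 was lower by 0.75 ± 0.11 (0.00336), Col6a5 was higher by 1.46 ± 0.18 (0.000761) and Rbm44 was higher (0.000135). Ppm1m (0.31 ± 0.07, adjusted p = 0.0686 in edgeR) and Map2 (-0.15 ± 0.05, 0.195) did not. For Bod1-ps this contrast gave no usable test, since Del(CBS1) and Del(CBS1-2) were both at 0 counts. For Map2 the 95% interval of the difference was -0.25 to -0.05, and for Ppm1m 0.17 to 0.45. The other alleles were not alike among themselves. Tmco1 fell in Del(CBS1-2) too, by 0.44 ± 0.05 against WT (edgeR, Benjamini-Hochberg adjusted p = 0.000252), but its fold changes were 0.11 in Del(CBS1-3), -0.07 in Del(CBS1-4) and -0.02 in Del(CBS1-5). Col6a5 averaged 31.8 CPM in Del(CBS1), 17.3 CPM in Del(CBS1-2), 12.9 CPM in Del(CBS1-3), 8.46 CPM in Del(CBS1-4) and 9.48 CPM in Del(CBS1-5), beside 9.28 CPM in WT. Map2 also passed against WT in Del(CBS1-2), at -0.30 ± 0.06 (edgeR, Benjamini-Hochberg adjusted p = 0.02555). Its fold changes were -0.25 in Del(CBS1-3), -0.15 in Del(CBS1-4) and -0.12 in Del(CBS1-5). Among the called genes, Del(CBS1-2) was the allele nearest to Del(CBS1) in Tmco1, Hba-a1, Col6a5, Bod1-ps, Map2 and Ppm1m. Other named genes differed. Klhl9 (-0.65 in Del(CBS1)) was nearest in Del(CBS1-4), at -0.53, and Fignl1 (0.49) in Del(CBS1-5), at 0.56. D2hgdh was 0.89 in Del(CBS1) and -0.38 in Del(CBS1-2), and for Hoxd8, Hoxd9 and Hoxd4 Del(CBS1-2) was the farthest allele. In Del(CBS1-2) 114 genes (0.721%) passed against WT, while 11 (0.0696%) passed in Del(CBS1-3), 0 (0%) in Del(CBS1-4) and 11 (0.0696%) in Del(CBS1-5).

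A further 9 genes outside the cluster, and Hoxd8, were named because DESeq2 (25 of 15807 genes, 0.158%) called them where edgeR did not. The rule that named them also required groups without overlap, so that separation is not a result about these genes. An edgeR fit of the 6 libraries alone called 2 of 14990 genes (0.0133%), Tmco1 and Bod1-ps, and none of these. The lower ones were Hmgb2, Klhl9, Pank3 and Purb. Hmgb2, a chromatin protein of dividing cells, had 7.97, 11.2 and 8.80 CPM in Del(CBS1) and 48.5, 24.7 and 26.1 CPM in WT, a fold change of -1.82 ± 0.35 (edgeR, Benjamini-Hochberg adjusted p = 0.0883). The 12 libraries of the other alleles ran from 5.89 to 48.8 CPM. Of the 50-base stretches of Hmgb2, 18.7% also occur in other genes, mostly in Gm4739. The 16 genes of proliferation, by contrast, had fold changes of -0.16 to 0.06 and 0 calls. Klhl9, an adaptor of a ubiquitin ligase, averaged 99.4 ± 2.7 CPM in Del(CBS1) and 157 ± 36 CPM in WT (-0.65 ± 0.13). Pank3, an enzyme of coenzyme A synthesis (-0.24 ± 0.05), and the DNA- and RNA-binding protein gene Purb (-0.22 ± 0.05) had smaller differences.

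The higher ones were Morf4l1, Fignl1, Dbi, D2hgdh and Dnah7b. Morf4l1, a chromodomain protein of histone acetyltransferase complexes, averaged 54.0 ± 9.7 CPM in Del(CBS1) and 36.1 ± 1.9 CPM in WT (0.59 ± 0.12). Fignl1, an ATPase of homologous recombination, averaged 70.6 ± 7.9 CPM in Del(CBS1) and 50.3 ± 1.9 CPM in WT (0.49 ± 0.10), and Dbi, an acyl-CoA-binding protein, 87.7 ± 7.0 CPM in Del(CBS1) and 73.3 ± 0.60 CPM in WT (0.26 ± 0.05; SD, n = 3 each). For Morf4l1, Fignl1 and Dbi the edgeR Benjamini-Hochberg adjusted p-values were 0.0966, 0.1 and 0.112. Against WT, Morf4l1 passed in Del(CBS1-2) and Fignl1 in Del(CBS1-5), with edgeR Benjamini-Hochberg adjusted p = 0.0381 and 0.0314. D2hgdh, a mitochondrial dehydrogenase, had 10.1, 8.93 and 13.9 CPM in Del(CBS1) and 4.58, 7.26 and 5.86 CPM in WT, a fold change of 0.89 ± 0.19. Its FPKM values did not show this, with 2.78, 1.93 and 2.96 in Del(CBS1) and 1.75, 3.32 and 2.78 in WT, and 17.8% of its 50-base stretches occur in other genes. Dnah7b, a dynein heavy chain of cilia, averaged 5.64 ± 1.1 CPM in Del(CBS1) and 2.64 ± 0.59 CPM in WT, and shares 30% of its stretches with other genes, mostly Dnah7c. The contrast with the other 4 alleles reuses the Del(CBS1) libraries by which the genes of this group were named. In it, Hmgb2 (-1.54 ± 0.30), Klhl9 (-0.63 ± 0.11), Purb (-0.22 ± 0.04) and D2hgdh (1.10 ± 0.14) passed, with edgeR Benjamini-Hochberg adjusted p = 0.0401, 0.0153, 0.0304 and 0.000986. Hbb-bt (-1.35 ± 0.25) and the glycolytic enzyme gene Pfkl (0.22 ± 0.04) passed there too, with edgeR Benjamini-Hochberg adjusted p = 0.0304 and 0.0401. So did Aldh1a2, an enzyme of retinoic acid synthesis on the distal patterning list, which had 44.1, 61.6 and 39.7 CPM in Del(CBS1) and was higher than the other alleles by 0.52 ± 0.10 (edgeR, Benjamini-Hochberg adjusted p = 0.0304). Against WT, with 42.0, 46.6 and 39.3 CPM, Aldh1a2 overlapped and did not pass (0.19 ± 0.12).

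The 4 called genes with a usable fold in both tissues (Tmco1, Hba-a1, Map2 and Ppm1m) had the same sign in distal tissue. Distal Del(CBS1) and WT were compared in a separate fit of all distal libraries, those of the larger alleles included. There 5 of 15361 genes (0.0325%) passed. Tmco1 fell by 0.46 ± 0.08 and Hba-a1 by 0.92 ± 0.15 in distal tissue (edgeR, Benjamini-Hochberg adjusted p = 0.0385 for each), and both were also called in proximal tissue. The distal value of Hba-a1 is as uncertain as the proximal one. Hba-a1 and Hba-a2 together gave 139, 143 and 188 CPM in distal Del(CBS1) and 197, 197 and 245 CPM in distal WT, a log2 ratio of means of -0.44. Hmgb2 fell there by 2.10 ± 0.26 and Fignl1 rose by 0.55 ± 0.09 (edgeR, Benjamini-Hochberg adjusted p = 0.00375 and 0.0385). The fifth distal call was Gm10350, an unnamed gene model listed here to complete the count. Map2 (-0.40 ± 0.09) and Ppm1m (0.36 ± 0.10) kept their sign in distal tissue without passing, with edgeR Benjamini-Hochberg adjusted p = 0.134 and 0.234. Col6a5, with 5, 60 and 14 counts in distal Del(CBS1) and 7, 6 and 4 counts in distal WT, was too low to test there. The proximal and distal libraries of a number deviated together from their group means, so the tissues are not independent repeats of a gene's difference. The called genes were also chosen by their proximal values, so their shared sign is not a separate result.

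Whether the allele acted differently in the 2 tissues was tested as an interaction over all 36 libraries. It was called for 0 of 16292 genes (0%) in edgeR and for 0 in DESeq2, while 345 genes (2.12%) had an unadjusted p under 0.05 in edgeR. These fits had no term for the embryo, although proximal and distal libraries of a number deviated together. The SE and intervals given here are therefore those of unpaired libraries. For Hoxd8 the proximal effect minus the distal effect was -0.09 ± 0.40, for Hoxd4 0.24 ± 0.45 and for Hoxd3 -0.28 ± 0.66. The 95% intervals were -0.92 to 0.73, -0.68 to 1.15 and -1.63 to 1.06, wider than the proximal effects themselves. In distal tissue these 3 genes are low, and their fold changes there were -0.45 ± 0.41, -1.01 ± 0.43 and -0.76 ± 0.63. For Tmco1, which is well expressed in both tissues, the difference was -0.09 ± 0.09. Among the genes named below, Aif1 had -0.80 ± 0.28 in proximal and 0.54 ± 0.38 in distal tissue, a difference of -1.33 ± 0.47. Barx1 had 0.52 ± 0.18 in proximal and -0.73 ± 0.49 in distal tissue, a difference of 1.25 ± 0.47, and neither passed (edgeR, Benjamini-Hochberg adjusted p = 1).

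**Figure D4:**
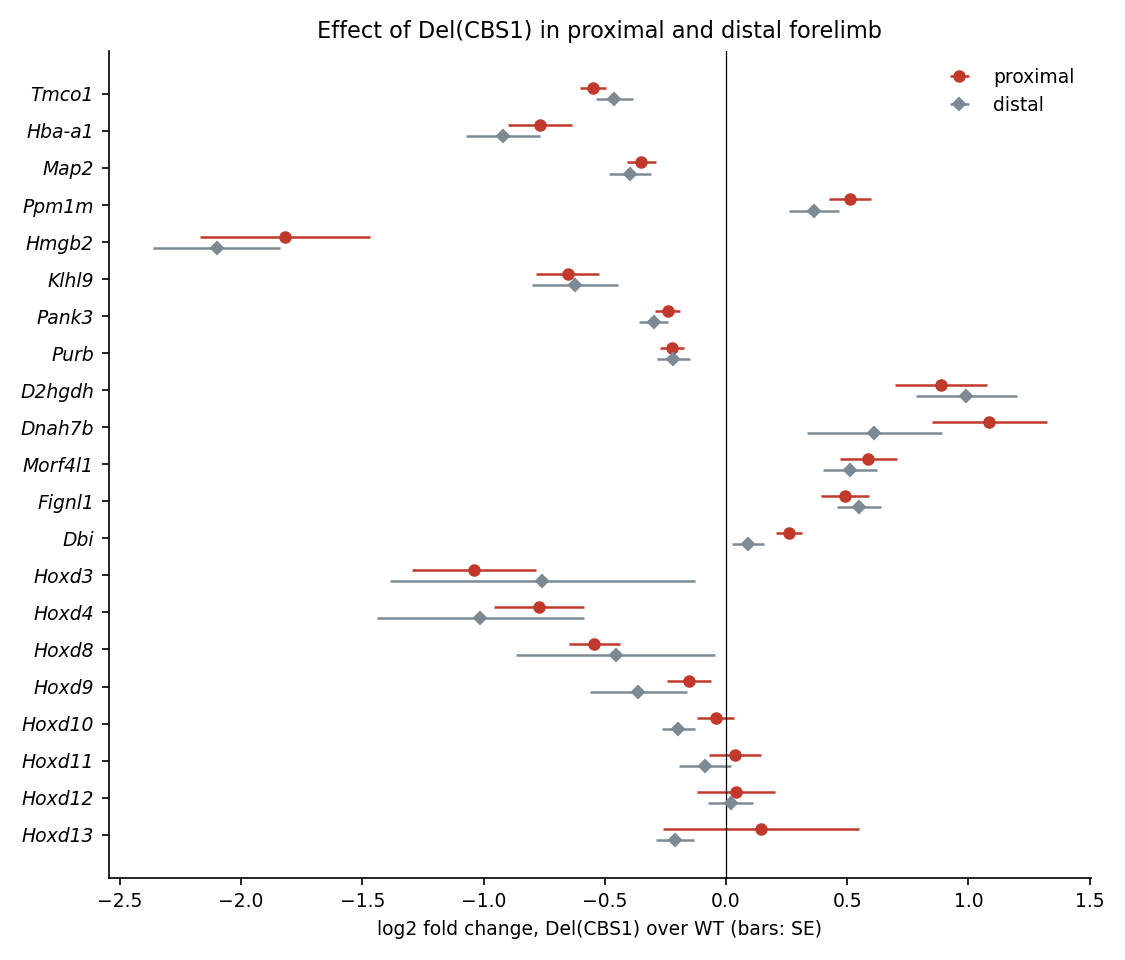
Log2 fold change of Del(CBS1) over WT with its SE in proximal (red circles) and distal (grey diamonds) forelimb, for the called and named genes tested in both tissues and for the HoxD genes. The 13 genes outside the cluster have the same sign in both tissues, from Hmgb2 at -1.82 and -2.10 to Dnah7b at 1.09 and 0.61, and the bars are widest for Hoxd3, Hoxd4 and Hoxd8 in distal tissue. The 13 genes were chosen by their proximal values, and the tissues are not independent, so the shared sign is not a separate result.

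No gene of limb patterning passed against WT. Of 20 genes of proximal patterning, among them Meis, Pbx and Tbx5, 0 passed, where 0.0443% of all genes did, and 0 had an unadjusted p under 0.05, where 7.1% did. In a list of this size, a count of 0 is near these shares. The log2 fold changes ran from -0.09 to 0.37 in the proximal list, with a median of 0.04, and from -0.40 to 0.32 in the distal one, where the SE reached 0.70 (Msx1 and Sp8). Of 20 genes of distal patterning 0 passed, and the lowest p was that of Tfap2b, a transcription factor gene of limb mesenchyme, at 55.4 ± 2.7 CPM in Del(CBS1) and 64.2 ± 7.5 CPM in WT. The other Hox clusters had no call in 11 HoxA, 8 HoxB and 9 HoxC genes. Their median log2 fold changes were 0.02 for HoxA, 0.07 for HoxB and 0.28 for HoxC. In 3 of 9 HoxC genes all Del(CBS1) libraries lay above WT, where 5.1% of all genes did so, all at low level: Hoxc4 had 4.11, 5.72 and 4.56 CPM in Del(CBS1) and 3.57, 2.57 and 3.20 CPM in WT (0.63 ± 0.30). Hoxb2 had 4.05, 3.86 and 3.49 CPM in Del(CBS1) and 2.33, 3.19 and 2.45 CPM in WT (0.51 ± 0.20). Neither passed, with edgeR Benjamini-Hochberg adjusted p = 0.7 and 0.57.

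Signalling and skeletal genes gave no call either. In the Hedgehog pathway, which the posterior limb bud uses to set digit identity, 0 of 12 passed. Its antagonist gene Hhip averaged 23.6 ± 3.9 CPM in Del(CBS1) and 29.0 ± 4.8 CPM in WT, and the groups overlapped. In BMP signalling 0 of 16 passed. The type II receptor gene Bmpr2 averaged 145 ± 7.0 CPM in Del(CBS1) and 166 ± 13 CPM in WT, the inhibitor gene Smad7 27.0 ± 1.5 and 32.4 ± 3.1 CPM, and the target gene Id3 201 ± 16 and 180 ± 26 CPM (SD, n = 3 each). For Bmpr2 and Smad7, 2 of the 16 genes, all Del(CBS1) libraries lay below WT, which held for 5.74% of all genes. That count is small, and the groups of Id3 overlapped. Of 17 Wnt genes 0 passed, and the Wnt effector gene Tcf7 averaged 19.1 ± 0.97 CPM in Del(CBS1) and 16.3 ± 1.7 CPM in WT. Of 21 genes of cartilage formation 0 passed, with Sox6, a partner of Sox9, at 101 ± 16 CPM in Del(CBS1) and 118 ± 1.7 CPM in WT. Of 12 genes of the joint interzone 0 passed, with Barx1, a homeobox gene of joints, at 8.27 ± 0.36 CPM in Del(CBS1) and 5.81 ± 0.62 CPM in WT.

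**Figure D5:**
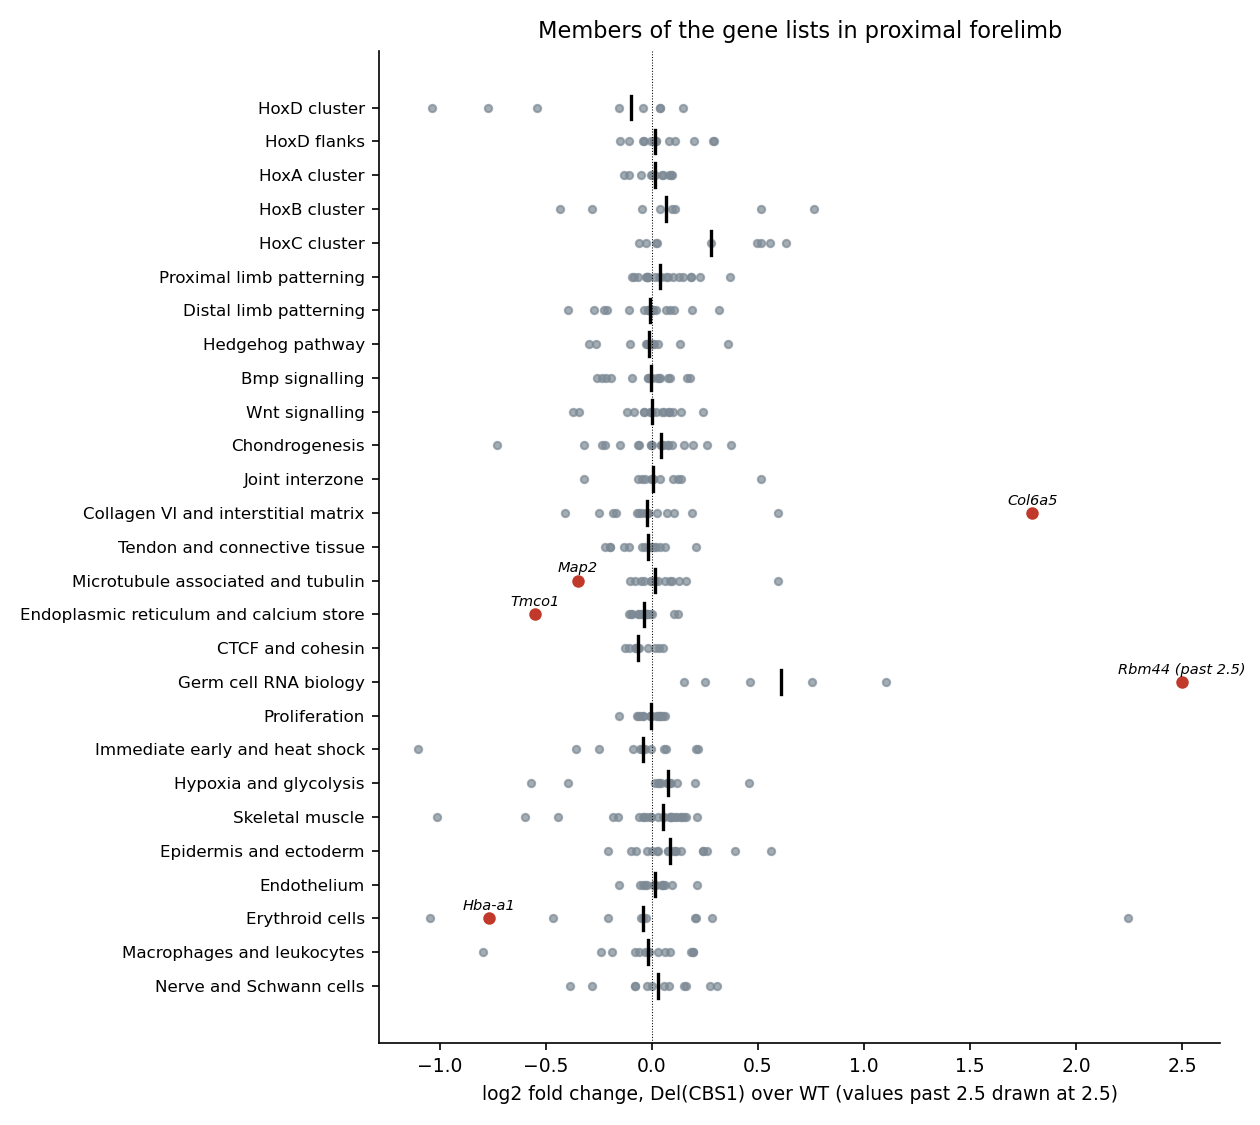
Log2 fold change of Del(CBS1) over WT in proximal forelimb for the tested members of each gene list, with red points for called genes, black bars at the list median and values past 2.5 drawn at 2.5. The median is -0.10 for the HoxD cluster and 0.28 for the HoxC cluster, and 5 called genes are list members. The germ cell bar rests on 6 of 14 genes, with Rbm44 tested through its Del(CBS1) counts, and is not read as a result.

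Of 14 germ cell genes, 6 were above the filter on low counts, and Rbm44 passed. Rbm44 was above that filter through the Del(CBS1) libraries, where it is high, so no count of signs or median over the list is given. Tdrd1, a Tudor protein of the piRNA pathway, had 6.79, 7.15 and 6.56 CPM in Del(CBS1) and 4.04, 4.76 and 3.34 CPM in WT (0.76 ± 0.24; edgeR, Benjamini-Hochberg adjusted p = 0.452). It did not differ beyond error from the other alleles (-0.07 ± 0.18, 95% interval -0.45 to 0.31). The lists of the other called genes held no second call: 1 of 18 collagen and matrix genes passed (Col6a5), 1 of 15 microtubule genes (Map2) and 1 of 16 genes of the endoplasmic reticulum and calcium store (Tmco1), while 0 of 14 tendon genes did. CTCF and cohesin genes had 0 calls of 11 and a median of -0.07. Stress-related lists had no call in 13 immediate early and heat shock genes and 14 gene models of hypoxia and glycolysis, with Eno1 at 82.0 ± 8.2 CPM in Del(CBS1) and 122 ± 45 CPM in WT, Bnip3 at 15.9 ± 1.2 and 21.0 ± 1.6 CPM, and Pfkl at 266 ± 15 and 246 ± 4.6 CPM (SD, n = 3 each). Among cell type markers, Hba-a1 was the 1 call. No muscle, endothelial, nerve or ectodermal marker passed, nor did any of macrophages. Krt17, a keratin of the ectoderm, averaged 23.8 ± 3.4 CPM in Del(CBS1) and 18.1 ± 4.8 CPM in WT, and Aif1, a macrophage gene, had 1.437, 1.215 and 1.162 CPM in Del(CBS1) and 2.874, 2.003 and 1.838 CPM in WT.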

How the data were processed

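Poly(A) RNA of dissected forelimbs was made into stranded TruSeq libraries and read as single ends of 50 bases, per the labels' protocols. The authors deposited whole-number read counts per Ensembl gene, used for the tests, and FPKM values from Cufflinks, per the file headers. Named in the submitters' processing notes are the build mm10 and the tools bedtools 2.27.1, cutadapt 1.16, Cufflinks 2.2.1 and STAR 2.7.0. Counting settings, strand among them, are not stated in the labels. Counts were given for 50833 genes, none on X, Y or M.

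The counts were tested in R 4.3.3 with edgeR 4.0.16 (glmQLFit and glmQLFTest, TMM scaling, filterByExpr) in 1 fit of the 18 proximal libraries, with contrasts for Del(CBS1) minus WT and Del(CBS1) minus the mean of the other 4 alleles. A separate fit of all distal libraries gave the distal contrast of Del(CBS1) minus WT, and the interaction used all 36 libraries. Calls required a p under 0.05 after Benjamini-Hochberg adjustment across every tested gene. Libraries being from single embryos, the p-values measure embryo-to-embryo spread inside the groups, pooled over the groups of a fit. Differences between litters or founder lines, which the labels do not state, are not covered by them. CPM are counts scaled by TMM over all 36 libraries, and coordinates are 1-based on mm10. Alternatives were DESeq2 1.42.0 and limma 3.58.1 on log2(FPKM + 0.1) and log2(FPKM + 1), other filters and scalings, single libraries left out, and a replicate block. The replicate numbers do not pair Del(CBS1) with WT. Across tissues they do: in each genotype the same-numbered proximal and distal libraries deviated together (r = 0.163 to 0.534).

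On counts simulated from these libraries (15574 genes), the fit recovered 79.7% of changes set at 1.5-fold between proximal Del(CBS1) and WT, 95.9% at 2-fold, and 97% at 3-fold, while 12 of 195 calls were false. The changed genes (59, 74 and 67) were drawn from those with an average log2 CPM above 2. So many planted changes ease the adjusted threshold, and the real contrast had 7 calls. The shares therefore do not hold for genes at low level or for the real contrast. Totals per library limit the precision at low counts.

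Named are the HoxD genes, flanks of the cluster, called genes, up to 5 genes per direction called by DESeq2 or by the 6 libraries alone (at least 50 counts on average, groups apart), and up to 3 members per list with the smallest p. After the values were seen, flanks and list members with an unadjusted p of 0.05 or more were mostly summarised, and Msx1, Hoxa13, Bod1, Hba-a2, Hoxd3os1, Gm28230 and the other collagen VI genes were added. The comparison, lists and rules were chosen with earlier results of these data known, so no list is independent evidence.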

Additional observations from a re-analysis of the deposited data

How the results depend on the processing

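In proximal Del(CBS1) minus WT, 7 genes were called, against 250 with no filter on low counts, 25 with DESeq2, 2 with the 6 libraries alone and 1 to 15 with single libraries left out. Of those 7, limma on either FPKM scale kept 3 among its 6 and 7 calls, and DESeq2 kept 7. The number called was 1 without Del(CBS1) 2, 4 without Del(CBS1) 3, 12 without WT 1 and 15 without WT 3. Of the HoxD genes, 0 were called, against 3 with no filter, 2 with DESeq2 and 0 to 0 with single libraries left out. Against the other 4 alleles 34 genes were called, with 670 for no filter, 172 for DESeq2, 20 for limma on log2(FPKM + 0.1), 11 for limma on log2(FPKM + 1) and 6 to 52 without single libraries (11, 6 and 15 without Del(CBS1) 1, 2 and 3, and 51 and 52 without WT 1 and WT 3). The tissue difference had 0 calls, with 29 for no filter, 1 for limma on log2(FPKM + 1) and 0 to 0 without single libraries. D2hgdh turned to -0.0116 and -0.0134 in the limma fits with 0.1 and 1 added. Without single libraries, fold changes spanned 0 for Aldh1a2 (-0.0199 to 0.31), Evx2 (-0.23 to 2.96), Lnpk (-0.19 to 0.000472), Mtx2 (-0.01995 to 0.0353), Hoxd10 (-0.0716 to 0.00821), Hoxd13 (-0.37 to 0.74), Hoxd11 (-0.0762 to 0.0949) and Hoxd12 (-0.22 to 0.17). Of the values of named genes under the alternatives, 586 kept direction and side of the threshold, 32 passed newly, 37 no longer passed and 16 changed sign. The cause was not tested.

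The replicate numbers do not pair Del(CBS1) with WT (r of same-numbered libraries -0.0619, -0.141 and 0.0244), and not every library correlated best with its own number. With a replicate block, 8 genes were called against WT, with 6 of the 7 among them (not Map2, adjusted p = 0.0643 in edgeR) and 1 HoxD gene (Hoxd8, adjusted p = 0.0489 in edgeR), 20 against the other alleles and 0 for the tissue difference. A block by embryo over the 12 Del(CBS1) and WT libraries of both tissues also gave 0.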

Other observations

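Genes that were switched between near absence and clear presence inside a group were counted after the values were seen, at a limit of under 0.5 CPM in 1 library and at least 5 CPM in another. There were 6 such genes in proximal Del(CBS1) and 38 in proximal WT, and 6 and 36 in distal tissue of the same genotypes. The other proximal alleles had 5 in Del(CBS1-2), 17 in Del(CBS1-3), 8 in Del(CBS1-4) and 9 in Del(CBS1-5). In 34 of the 38 genes of proximal WT, the same WT numbers were under the limit in distal tissue. Many are processed pseudogenes or unnamed gene models. Rps3a3, a ribosomal pseudogene, had 73.8, 171 and 81.4 CPM in Del(CBS1) and 159, 0.188 and 0.34 CPM in WT. Rpsa-ps10 had 0.0653, 94.3 and 88.9 CPM in Del(CBS1) and 0, 171 and 184 CPM in WT. The zinc finger gene Zfp990 had 20.2, 17.4 and 19.8 CPM in Del(CBS1) and 27.5, 12.4 and 0 CPM in WT, and Masp2, a protease gene of the complement lectin pathway, had 9.08, 8.58 and 8.05 CPM in Del(CBS1) and 9.55, 3.44 and 0.204 CPM in WT. Why these genes vary between embryos of a group was not tested.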
